A study of Rattus norvegicus with 10 samples.

Results

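The primary cilium and ciliopathy genes were examined in the renal cortex of PCK rats of both sexes, as 77 protein-coding genes of the 32545 genes in the deposited expression table. They were picked by symbol and not by any measured value. A gene was a member when its name began with *Ift*, *Bbs*, *Nphp*, *Tctn* or *Cep* and a digit, or with *Dync2*, or when it was *Kif3a*, *Kif3b*, *Kif3c* or 1 of 14 further genes (*Wdr19*, *Wdr35*, *Mks1*, *Tmem67*, *Tmem216*, *Invs*, *Arl13b*, *Arl6*, *Inpp5e*, *Rpgrip1l*, *Cc2d2a*, *Ahi1*, *Kif17* and *Glis2*). RNA of 5 males and 5 females was sequenced, with 1 library per rat. The labels give an age of 12 to 14 weeks, and the study's methods give a somewhat younger one. Every rat of both groups was of the strain PCK/CrljCrl-Pkhd1pck/Crl, which carries a mutation in *Pkhd1* and serves as a model of autosomal recessive polycystic kidney disease. No rat received a treatment and no group without cysts was sequenced, so the comparison was between the sexes within cystic kidneys. The rats came from 2 litters, each with its own parents, and the litter of each rat was not used here, so some rats counted as independent were siblings. The labels name the tissue as kidney and the methods name it as cortex frozen after flushing with PBS.

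The depth behind each value was known from whole reads. Dividing each FPKM (fragments per kilobase of gene, scaled to library size) by what 1 read is worth gave whole reads for 100% of values. The tolerance was 0.02 of a read at low counts. It widened in proportion to the count for genes with many reads, so the check says little at the highest counts. Libraries held 13912569 to 20285911 reads on genes, and 1 read on a gene of 1 kb came to 0.0486 to 0.0710 FPKM. Mitochondrial genes took 14.3% to 26.8% of the reads, the highest share being that of female 2. No 2 libraries were alike within sampling noise, since even the closest pair (males 1 and 3) had a chi-square of 9.71 for each degree of freedom. The 14 proximal tubule markers of a marker list stood at 60.4 to 1257 FPKM, so the labelled tissue showed its main epithelium. Because these are bulk libraries, fewer cells of a type and less RNA per cell cannot be told apart in any value below. Whether counting used the strand is not given in the sources used here, and 21 members overlap another gene in position, so reads of such neighbours could be shared.

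The primary cilium is a single microtubule-based projection that most kidney epithelial cells extend from a basal body into the lumen, where it takes part in sensing and signalling. Intraflagellar transport (IFT) builds it: kinesin-2 carries the IFT-B complex and its cargo toward the tip, and dynein-2 carries the IFT-A complex back. The BBSome moves membrane proteins out of the cilium, and the transition zone at its base limits what enters. The products of many genes of polycystic kidney disease locate to the cilium, so these diseases are counted among the ciliopathies. Nephronophthisis and the Bardet-Biedl, Joubert and Meckel syndromes arise from genes of the transition zone, the BBSome and the basal body. The members fell into 7 groups by role: 5 IFT-A genes, 11 IFT-B genes, 6 motor genes, 9 genes of the BBSome and its GTPase *Arl6*, 13 transition zone and nephronophthisis genes, 2 genes of ciliary membrane signalling and 31 *Cep* genes of the centrosome and basal body. *Cep* genes with no other group assigned were put in this last group by their symbol.

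A share of the members had a common sequence near their start sites, which the choice by symbol had not used. Some RFX factors are known to switch on ciliary genes, and the sequence they bind is called the X-box. Windows from 250 bases before to 50 bases after a start were at hand from RefSeq (build GRCr8) for 64 of the 77 members and for 27457 genes in all. The letters GTNNCC, followed after 0 to 3 bases by NGNAAC on either strand, stood in the windows of 11 of the 64 members (17.2%), against 5.39% of all genes and 5.21% of the 19005 protein-coding genes with a window. The shorter letters GTTGCC, on either strand, stood in 23 members (35.9%), against 13.1% of all genes and 13.01% of protein-coding genes. The 2 searches overlap, as GTTGCC can be the first part of the longer motif, and 6 members held both. The windows of the members held a median of 21 CG dinucleotides, against 12 in protein-coding genes, and the part of base composition in these shares was not tested. A match is a description of the letters and no measure of binding. The longer motif was found in 5 of 9 transition zone genes and 2 of 5 IFT-A genes, against 2 of 28 *Cep* genes, 1 of 8 IFT-B genes and 0 of 5 motor genes. The matches in the IFT-A and transition zone genes, and the 2 in *Cep112*, are shown because they carry this feature, with 8 bases on each side, 5′ to 3′ along the gene and the matched letters in capitals.
Ift140, chr10:14537461-14537490, plus strand: tacgcacgGTCGCCCAGGGAACcctagctg
Wdr35, chr6:37490553-37490581, plus strand: cggcgctgGTTGCCAGGCGACgggagctt
Ahi1, chr1:17581940-17581969, plus strand: gcgactcaGTTACCTAGGTAACagcggcag
Mks1, chr10:73153157-73153186, plus strand: gcgtctccGTTGCCAGGGGAACggggcgcg
Nphp4, chr5:168270833-168270862, plus strand: tcgtgcccGTCTCCTAGGTAACgcgccagc
Tctn1, chr12:39970603-39970631, plus strand: ctgtgactGTTGCCCGGCAACagacaggc
Tmem216, chr1:216626501-216626530, minus strand: cgtacgcaGTTTCCATGGGGACtgaacatg
Cep112, chr10:93865527-93865556, plus strand: gctagacaGTTACCATAGCAACggagctgc
Cep112, chr10:93865682-93865711, plus strand: cccggggcGTCGCCATGGCAACagagttga

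The matches took different places in the windows. In *Wdr35* the match began 10 bases before the start of the gene, in *Tmem216* 3 bases before it and in *Ift140* 3 bases after it, and the most distant was in *Nphp4*, 232 bases before it. *Tctn1* and *Wdr35* had 13 matched letters and the others 14. *Cep112* was the sole member with 2 matches. The remaining matches were in *Arl6*, *Ift22* and *Cep83*.

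Expression of the members spanned a wide range (levels below are FPKM, which are per length and can be set side by side between genes). The median member was at 5.87 FPKM and the median of the 17631 genes tested (mean of 0.1 FPKM or more) was 5.79. Of the 77 members, 76 passed this filter. *Glis2*, a transcription factor mutated in nephronophthisis, was highest at 36.8 ± 3.73 FPKM in males and 32.8 ± 4.43 in females (SD, n = 5 each, here and below). It was followed by *Ift20*, an IFT-B subunit that also sits at the Golgi (29.4 ± 3.35 and 33.0 ± 3.495), by *Cep19*, a centriolar protein that helps IFT to start (22.2 ± 2.40 and 24.4 ± 2.61), and by the core IFT-B subunits *Ift46* (22.0 ± 2.91 and 21.5 ± 1.82) and *Ift52* (20.7 ± 1.303 and 21.4 ± 2.92). The ranges of these neighbours in the order overlapped, as *Ift20* had 25.3 to 38.3 FPKM over the 10 rats, *Glis2* 26.5 to 42.0 and *Cep19* 19.0 to 27.6.

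**Figure D1:**
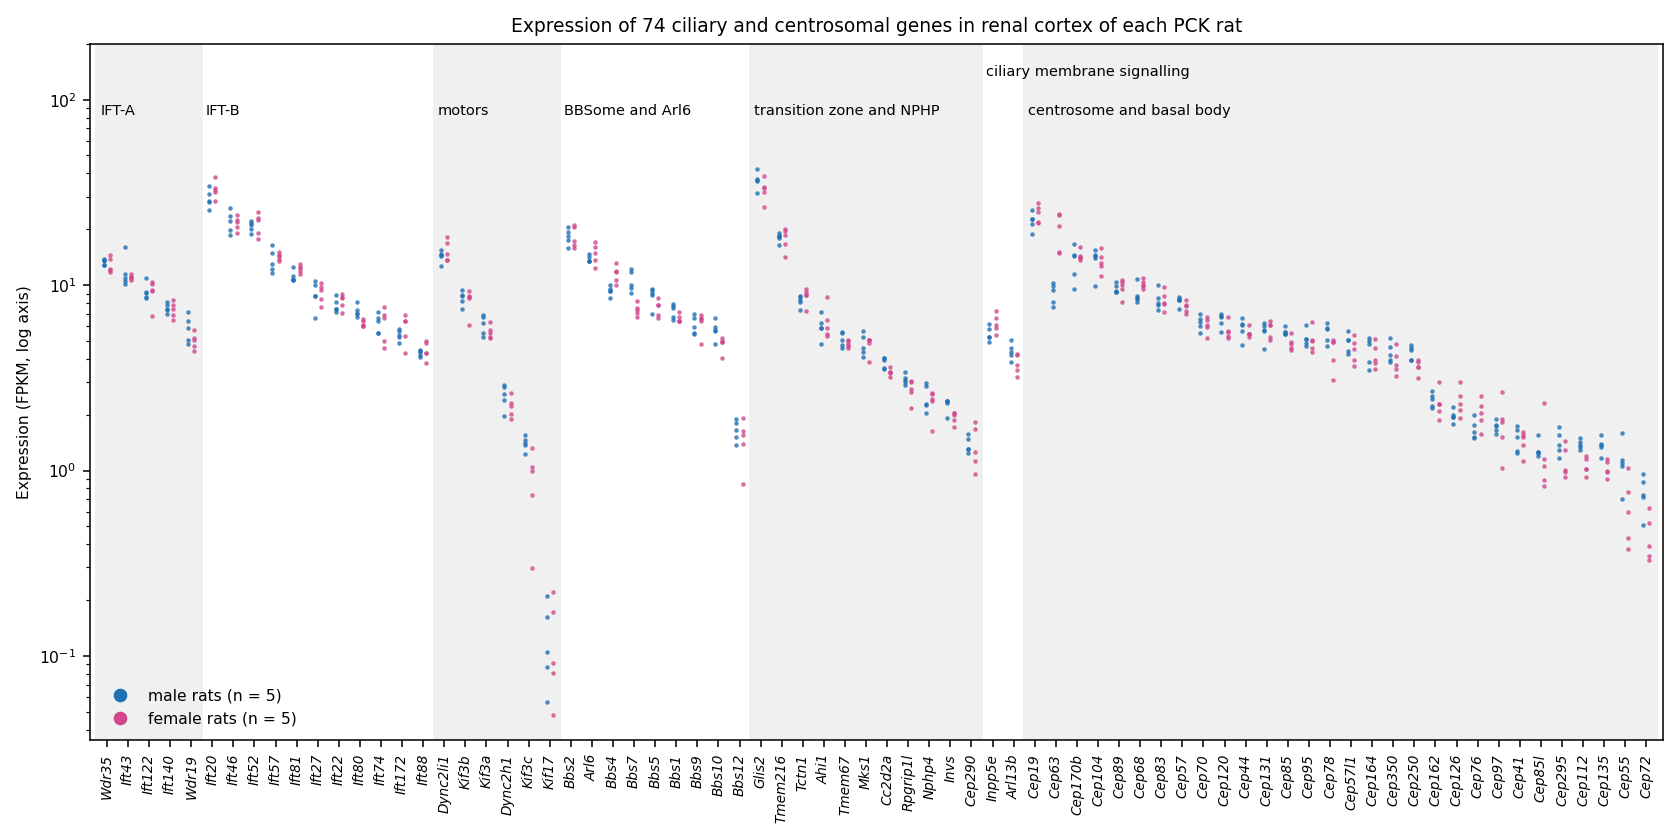
Expression of 74 members, in FPKM on a log axis. Each point is 1 rat (blue, 5 males; pink, 5 females), and genes are ordered by mean within each group of the members' roles. Points of the sexes intermingle for most genes, *Cep63* stands apart between the sexes, and *Kif17* lies lowest at a mean of 0.124 FPKM.

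Levels differed within each complex. The IFT-A subunits lay between 5.43 FPKM (*Wdr19*, the subunit IFT144) and 13.1 FPKM (*Wdr35*). The IFT-B subunits ran from 4.39 FPKM (*Ift88*, the gene of polaris, mutated in the cystic orpk mouse) to 31.2 FPKM (*Ift20*). Among the BBSome genes, *Bbs2* was highest at 18.3 FPKM, and *Bbs12*, a chaperonin-like protein that helps to assemble the complex, was lowest at 1.56 FPKM. The large proteins *Cep290*, which links microtubules to membrane in the transition zone, and *Dync2h1*, the heavy chain of dynein-2, were at 1.37 and 2.38 FPKM.

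Of the kinesin-2 motors, *Kif3b* was at 8.39 FPKM and *Kif3a* at 5.86 FPKM, whereas *Kif3c*, a subunit best known from neurons, was at 1.14 FPKM. *Kif17*, the homodimeric kinesin-2, was near the limit of detection with 3 to 16 reads per library. Its values were 0.105, 0.0875, 0.0564, 0.211 and 0.163 FPKM in males 1 to 5 and 0.0807, 0.173, 0.0482, 0.0919 and 0.221 FPKM in females 1 to 5. *Cep295nl* had at most 6 reads in any library and was listed at 0 in male 1 and in females 2 to 5, so it was not tested. It lies within *Timp2* on the same strand. Apart from these genes, every member had at least 10 reads in each library, and the members below 1 FPKM were *Cep55*, a midbody protein of cell division, at 0.880 FPKM and *Cep72*, a centriolar satellite protein, at 0.602 FPKM.

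The sexes were compared for all genes by limma on log2(FPKM + 0.1), with Benjamini-Hochberg adjustment over the 17631 genes, and fold changes are of females over males on that scale, which understates the change of genes with few reads. Of the 76 members tested, 1 was higher in females at an adjusted p of at most 0.05 (*Cep63*), where 1.26% of all genes were called higher, and 1 was lower (*Bbs7*), where 1.14% of all genes were called lower. With an added log2 fold change of at least 1, *Cep63* was the 1 member that passed, against 1.32% of all genes. Each of these counts is 1.32% of the members, which is close to the share in all genes, so the counts are no result about the members as a group. With 5 rats per sex, p-values cover the spread between these rats.

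Most members lay close between the sexes. The median absolute log2 fold change was 0.12 over the members and 0.17 over all genes. Of the 76 members, 68 (89.5%) lay within 1.25-fold between the sexes, against 69.8% of all genes. At levels of at least 1 FPKM, where counting error is smaller, the shares were 67 of 73 members (91.8%) and 78.2% of 13363 genes. The fold change was below 0 for 52 members (68.4%), against 51.2% of all genes, and above 0 for 24, and the median was −0.05, against −0.01 for all genes. This split moved with the scaling: it was 61 below and 15 above with values scaled by total reads, where the medians were −0.12 for members and −0.08 for all genes, and 44 below and 32 above after quantile normalization.

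**Figure D2:**
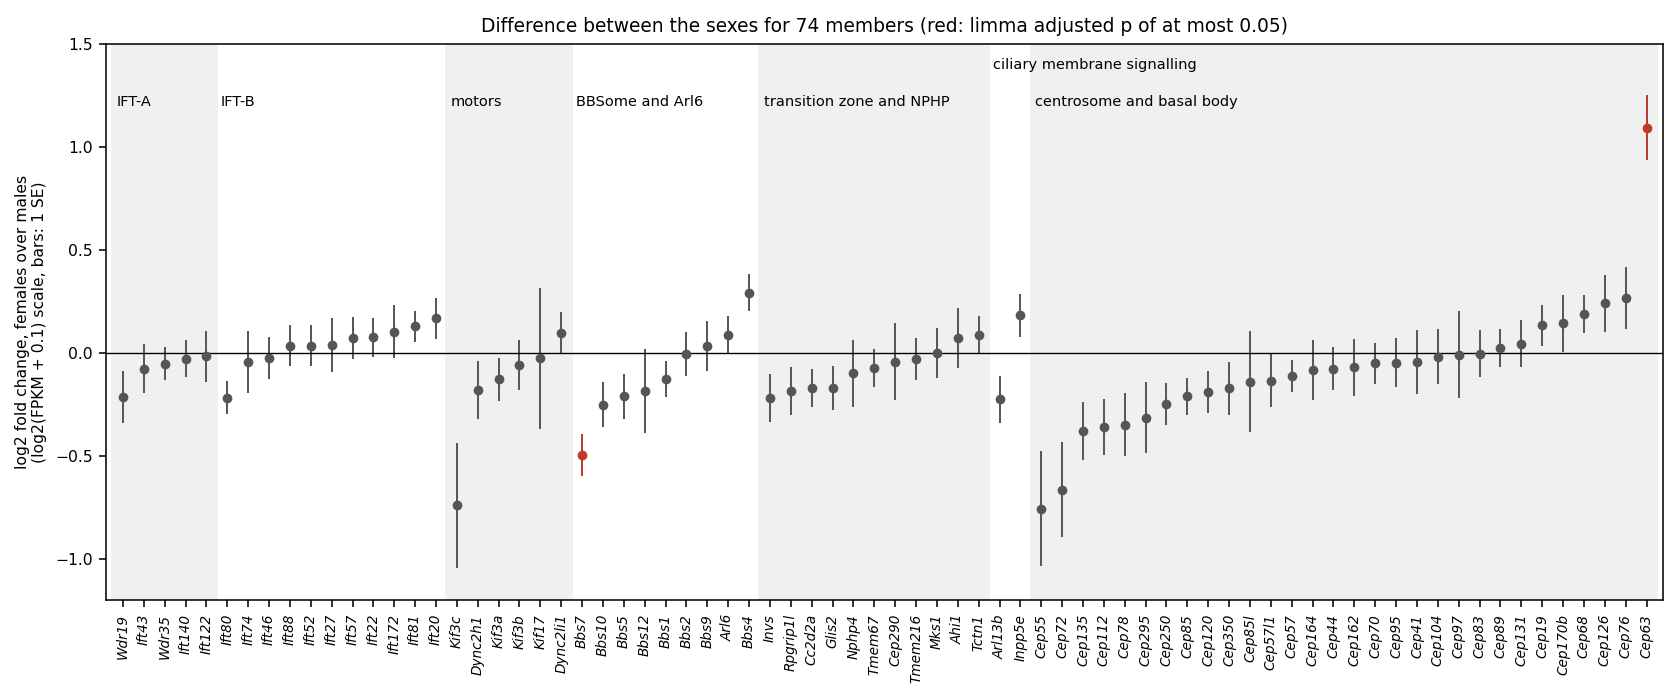
Log2 fold change of females over males for 74 members, on the log2(FPKM + 0.1) scale, ordered within each group. Points are limma estimates and bars 1 SE (5 males, 5 females), and red marks an adjusted p of at most 0.05. *Cep63* at 1.09 and *Bbs7* at −0.49 are the red points, and 66 of the 74 members plotted lie within 1.25-fold.

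*Cep63* showed the largest difference. This gene encodes a centrosomal protein that acts in centriole duplication, and it lies on the minus strand of chromosome 8 from 111064049 to 111116014 (ENSRNOG00000008410, build Rnor_6.0). Males 1 to 5 had 8.14, 9.42, 7.61, 9.88 and 10.3 FPKM, and females 1 to 5 had 24.0, 14.9, 15.2, 20.7 and 24.0 FPKM. The lowest female stood above the highest male, and females varied more (SD 4.51) than males (SD 1.15). The fold change was 2.18 in means, or 1.09 on the log2 scale (SE 0.16, limma adjusted p = 0.00382). The exact permutation test, two-sided, gave p = 0.00794, the smallest that 5 against 5 allow. Any gene with separate ranges gets this value. With each library left out in turn, the log2 fold change was 1.02 to 1.19 and the limma adjusted p was 0.00268 to 0.0135.

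*Anapc13*, a subunit of the anaphase-promoting complex, overlaps *Cep63* by 8417 bases on the other strand, so *Cep63* reads are uncertain where the counting did not use strand. *Anapc13* was at 66.9 ± 12.8 FPKM in males and 84.3 ± 22.9 in females, and its log2 fold change was 0.32 (adjusted p = 0.424 by limma). Its highest value, 125 FPKM, was in female 2, against 70.5 to 76.9 FPKM in the other females. Female 2 had the lowest *Cep63* value of the females. In the males both genes rose in the same order, from male 3 (*Anapc13* 51.8 FPKM, *Cep63* 7.61) through males 1, 2 and 4 to male 5 (81.5 and 10.3). The part of shared reads was not tested. The other genes tested within 150 kb, *Amotl2* (log2 fold change 0.37, adjusted p = 0.231) and *Ky* (−0.94, adjusted p = 0.188, with at most 23 reads), were not called by limma. RefSeq gives *Cep63* 3 start windows in GRCr8, with 41, 18 and 3 CG dinucleotides, and the letters of neither motif were found in them. The window with most CG is shown for the member with the largest difference, 5′ to 3′ with CG in capitals.
Cep63, chr8:112084173-112084472, minus strand: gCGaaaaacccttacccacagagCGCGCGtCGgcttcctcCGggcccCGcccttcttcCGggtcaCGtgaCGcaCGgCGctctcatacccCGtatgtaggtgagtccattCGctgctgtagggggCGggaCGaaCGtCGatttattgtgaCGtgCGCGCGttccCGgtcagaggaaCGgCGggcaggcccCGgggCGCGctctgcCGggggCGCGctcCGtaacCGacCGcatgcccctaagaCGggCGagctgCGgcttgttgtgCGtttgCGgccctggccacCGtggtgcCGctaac

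*Bbs7*, which encodes a subunit of the BBSome, was lower in females. It lies on the minus strand of chromosome 2 from 123283388 to 123323170 (ENSRNOG00000015816, Rnor_6.0). Males 1 to 5 had 9.60, 10.03, 9.06, 12.2 and 11.7 FPKM, and females 1 to 5 had 6.77, 7.38, 7.10, 7.55 and 8.20 FPKM. All females were below all males, the gap lying between 8.20 and 9.06 FPKM. The log2 fold change was −0.49 (SE 0.10, limma adjusted p = 0.0288, exact permutation p = 0.00794), which is short of the added fold threshold. The limma call was lost in 6 of the 10 fits that left out 1 library, those without male 2, male 4, male 5, female 1, female 3 or female 4, where the adjusted p went up to 0.0681 and the log2 fold change was −0.54 to −0.44 over the 10 fits. It was also lost with the replicate number as a block (adjusted p = 0.0607), although the numbers did not pair the rats. Without female 2, the calls of *Cep63* and *Bbs7* both held.

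*Exosc9*, an exosome subunit, overlaps *Bbs7* by 11493 bases on the other strand and was at 10.7 ± 1.10 FPKM in males and 9.58 ± 0.927 in females (log2 fold change −0.15, limma adjusted p = 0.513). *Ccna2*, the cyclin gene next to *Bbs7* on the same strand, was at −0.55 on the log2 scale (adjusted p = 0.330 by limma). The start window of *Bbs7* in GRCr8 held 19 CG dinucleotides and the letters of neither motif, and is shown for the member called lower, 5′ to 3′ with CG in capitals.
Bbs7, chr2:121402424-121402723, minus strand: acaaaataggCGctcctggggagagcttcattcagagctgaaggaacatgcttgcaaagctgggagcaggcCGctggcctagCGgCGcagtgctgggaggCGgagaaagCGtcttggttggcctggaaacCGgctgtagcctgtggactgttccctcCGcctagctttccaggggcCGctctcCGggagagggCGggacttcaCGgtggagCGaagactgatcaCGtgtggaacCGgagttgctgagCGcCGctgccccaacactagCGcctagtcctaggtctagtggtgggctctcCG

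None of the other 8 genes of the BBSome group was called. *Bbs4*, also a subunit, had 8.49, 9.35, 9.51, 9.33 and 9.998 FPKM in males 1 to 5 and 10.7, 11.7, 9.96, 13.2 and 11.9 FPKM in females 1 to 5. The groups overlapped by female 3 and male 5, and the log2 fold change of 0.29 (SE 0.09) was not called (limma adjusted p = 0.132, exact permutation p = 0.0159). The ratio of *Bbs4* to *Bbs7*, taken after their values were seen and given as a description, was 0.766 to 1.05 in males and 1.403 to 1.74 in females. *Bbs2* was at 18.3 ± 1.80 FPKM in males and 18.3 ± 2.45 in females, and *Bbs9* was at 6.11 ± 0.690 and 6.28 ± 0.831. *Bbs1* (log2 fold change −0.12), *Bbs5* (−0.21), *Bbs10* (−0.25), *Bbs12* (−0.19) and *Arl6* (0.09), the GTPase that recruits the BBSome to membranes, had limma adjusted p-values from 0.295 to 0.724.

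**Figure D3:**
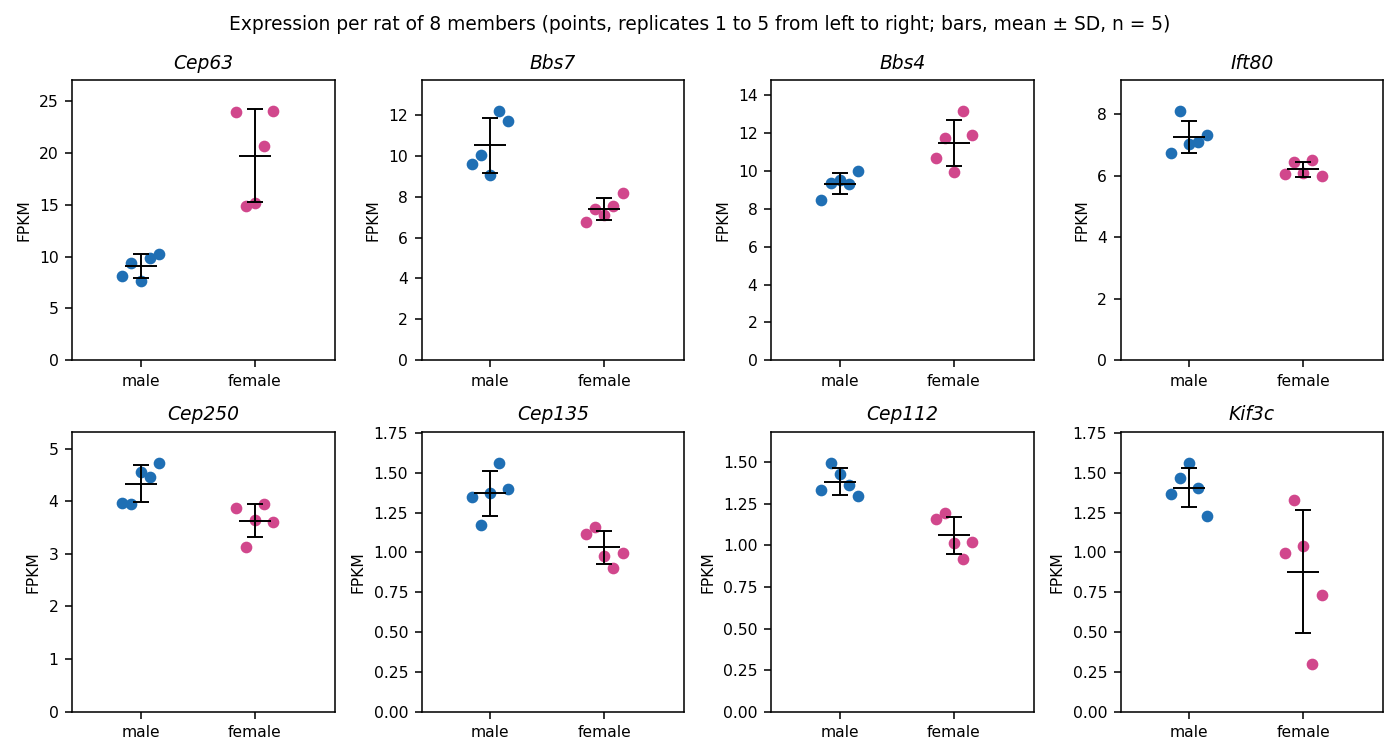
Expression in FPKM (axes start at 0) of 8 members in each rat. Points are rats 1 to 5 of each sex from left to right and bars are the mean ± SD (n = 5). In *Cep63*, *Bbs7*, *Ift80*, *Cep250*, *Cep135* and *Cep112* the ranges of the sexes are separate, and in *Bbs4* and *Kif3c* they overlap.

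None of the 16 IFT subunits was called. All 5 IFT-A genes had fold changes slightly below 0, from −0.21 (*Wdr19*) to −0.02 (*Ift122*), with limma adjusted p-values from 0.462 to 0.972. That direction was not shared by all 5 in every set of rats: 2 were above 0 without female 2, and 1 without male 3 or without male 5. *Ift140*, mutated in human ciliopathies with cystic kidneys, was at 7.52 ± 0.432 FPKM in males and 7.40 ± 0.721 in females. Of the IFT-B genes, 8 of 11 had fold changes above 0, up to 0.17 for *Ift20*, and 6 to 9 had when 1 rat was left out. With values scaled by total reads, 4 of the 11 were above 0, and *Ift52* and *Ift88* were among those that turned. *Ift88* was at 4.32 ± 0.158 FPKM in males and 4.45 ± 0.486 in females, and *Ift172*, the largest IFT-B subunit, at 5.39 ± 0.366 and 5.87 ± 1.03.

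*Ift80*, a peripheral IFT-B subunit, was the IFT gene with separate ranges. Its values were 6.72, 8.09, 7.03, 7.09 and 7.32 FPKM in males 1 to 5 and 6.05, 6.44, 6.08, 6.53 and 5.996 FPKM in females 1 to 5. The lowest male, at 6.72, was close to the highest female, at 6.53. The log2 fold change was −0.22 (SE 0.08, limma p = 0.0205, adjusted p = 0.213), and the exact permutation p was 0.00794. Separate ranges fix the exact permutation p at this value, so it adds nothing to them.

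The motors were not called. *Kif3c* had 1.36, 1.46, 1.56, 1.41 and 1.23 FPKM in males 1 to 5 and 0.994, 1.33, 1.04, 0.298 and 0.735 FPKM in females 1 to 5. Female 4 was lowest and female 2 lay within the range of the males. Its log2 fold change was −0.74 (SE 0.30, limma adjusted p = 0.262), and it was −0.44 without female 4. *Kif3a* (6.13 ± 0.722 and 5.59 ± 0.454 FPKM) and *Dync2h1* (2.54 ± 0.377 and 2.22 ± 0.281 FPKM) were within the spread between rats (exact permutation p = 0.190 and 0.183).

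Each of the 13 transition zone and nephronophthisis genes lay within 1.25-fold between the sexes, and none was called. *Mks1* of the MKS complex was at 4.79 ± 0.654 FPKM in males and 4.78 ± 0.519 in females, and *Tmem67*, the gene of meckelin, at 5.10 ± 0.451 and 4.84 ± 0.194. The fold change furthest from 0 was that of *Invs*, the gene of inversin, at −0.22 (2.27 ± 0.203 and 1.94 ± 0.144 FPKM, limma adjusted p = 0.412). *Rpgrip1l*, a scaffold of the transition zone, had a log2 fold change of −0.19, *Nphp4*, also of the transition zone, −0.10, and *Cep290* −0.04, with limma adjusted p-values of 0.487, 0.829 and 0.948. The 2 genes of membrane signalling went opposite ways, *Inpp5e*, the ciliary phosphoinositide phosphatase, at 0.18 and *Arl13b*, a small GTPase, at −0.22, and neither was called (limma adjusted p = 0.439 and 0.384).

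The *Cep* genes of the centrosome and basal body spread most widely in their fold changes, from −0.76 (*Cep55*) to 1.09 (*Cep63*), and 24 of the 30 tested lay within 1.25-fold. Apart from *Cep63*, none was called. Distal appendage genes, whose products anchor the basal body at the membrane, were close between the sexes: *Cep164* was at 4.46 ± 0.751 FPKM in males and 4.203 ± 0.651 in females, *Cep83* at 8.34 ± 1.04 and 8.33 ± 1.01, and *Cep89* at 9.57 ± 0.541 and 9.76 ± 1.003. Fold changes were above 0 in 7 *Cep* genes that were not called, and the largest of these were those of *Cep76*, which restrains centriole reduplication, at a log2 fold change of 0.27, and of *Cep126* at 0.24 (limma adjusted p = 0.442 and 0.444). The *Cep* genes not named here or below ran from −0.31 (*Cep295*) to 0.19 (*Cep68*), with limma adjusted p-values of 0.347 or more.

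The ranges were separate, with lower values in females, for 3 *Cep* genes. *Cep135*, a cartwheel protein of the centriole, had 1.35, 1.17, 1.37, 1.56 and 1.398 FPKM in males 1 to 5 and 1.12, 1.16, 0.979, 0.905 and 0.995 FPKM in females 1 to 5. The gap was narrow, between male 2 and female 2. *Cep112* had 1.33, 1.498, 1.43, 1.37 and 1.296 FPKM in males and 1.16, 1.19, 1.01, 0.917 and 1.02 FPKM in females, in the same order. *Cep250*, the gene of the centriole linker C-Nap1, had 3.97, 3.95, 4.56, 4.46 and 4.73 FPKM in males and 3.86, 3.14, 3.64, 3.94 and 3.60 FPKM in females. Its ranges almost met, at 3.94 and 3.95 FPKM. The log2 fold changes were −0.38 for *Cep135*, −0.36 for *Cep112* and −0.25 for *Cep250*, with limma adjusted p-values of 0.215, 0.216 and 0.264 and an exact permutation p of 0.00794 each. That exact permutation p follows from the separate ranges and adds nothing to them.

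Counted over all members, ranges were separate with females higher for 1 member, against 2.50% of all genes, and with females lower for 5 members (6.58%), against 2.60% of all genes. The 5 were *Bbs7*, *Ift80*, *Cep135*, *Cep112* and *Cep250*. The number of members with separate ranges in either direction went from 6 to 10 without male 1 and to 10 without male 4. Leaving out a rat cannot lower this number, and the share of all genes was not taken with a rat left out. At an unadjusted limma p under 0.05, 2 members were higher (2.63%, against 7.67% of all genes) and 11 were lower (14.5%, against 8.07%). This count of 13 in all moved with the fit: it was 8 without male 2, 8 with the replicate number as a block and 20 by limma-voom on the recovered reads. Beside those named above, the 11 included *Cep72*, *Cep55*, *Cep85*, *Bbs10* and *Cep78*, none of which passed adjustment (adjusted p from 0.186 to 0.298).

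Markers of dividing cells are given beside the *Cep* genes with lower means in females. All 19 proliferation markers tested had fold changes below 0 (median log2 −0.67), and their summed level ran from 63.7 to 83.4 FPKM in males, and from 41.7 to 57.0 FPKM in females. Of these, limma called *Bub1* (−0.86, adjusted p = 0.0369), *Bub1b* (−1.10, adjusted p = 0.0114) and *Rrm2* (−0.98, adjusted p = 0.0301) lower and none higher. Of the members, *Cep55* (1.12 ± 0.320 FPKM in males, 0.639 ± 0.264 in females, log2 fold change −0.76) and *Cep72* (0.759 ± 0.172 and 0.445 ± 0.128, −0.66) had the lowest fold changes of the *Cep* genes. *Cep55* had 0.702, 1.15, 1.06, 1.599 and 1.10 FPKM in males 1 to 5 and 0.766, 1.03, 0.595, 0.431 and 0.378 FPKM in females 1 to 5. Male 1 lay among the females, and neither gene was called (limma adjusted p = 0.212 and 0.186). The part of dividing cells in these values was not tested.

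Markers of kidney cell types had medians on either side of 0. Median log2 fold changes were −0.69 for 8 fibroblast and pericyte markers (1 called lower), −0.73 for 9 lymphocyte markers and −0.48 for 8 macrophage markers (none called). They were 0.57 for 7 intercalated cell markers (1 called higher), 0.42 for 8 principal cell markers (1 higher), 0.42 for 4 distal convoluted tubule markers (1 higher), 0.35 for 8 thick ascending limb markers (2 higher, 1 lower) and 0.11 for 14 proximal tubule markers (1 higher). Markers of podocytes (0.32), endothelium (0.03) and urothelium with cyst lining keratins (0.06) had no call. Without female 2 the medians were −0.02 for endothelium and −0.18 for urothelium, both turned in direction, and 0.18 for proximal tubule. Summed levels were 296 to 381 FPKM in males and 101 to 301 in females for fibroblasts and pericytes, and 194 to 291 and 290 to 437 FPKM for intercalated cells. The part of cell composition in the members' values was not tested.

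Members were also compared for how much they varied between rats. The coefficient of variation over the 10 rats had a median of 12.5% for the members and 20.7% for all genes, and of 12.3% and 16.3% at levels of at least 1 FPKM. The most even of the members was *Wdr35*, at 6.83%. The largest coefficients at a mean of at least 1 FPKM were those of *Cep63* (44.6%), *Kif3c* (33.95%), *Cep85l* (32.9%), *Cep97* (22.9%), a gene of a centriole cap protein that restrains cilium formation, and *Bbs7* (21.3%). These coefficients take in both sexes, so the difference between the sexes is part of those of *Cep63* and *Bbs7*. Within males the median was 10.6% for the members and 16.3% for all genes, and within females 11.6% and 20.4%. In *Cep97* the females ran from 1.03 to 2.64 FPKM, and the males from 1.57 to 1.89, so its spread came mostly from the females.

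**Figure D4:**
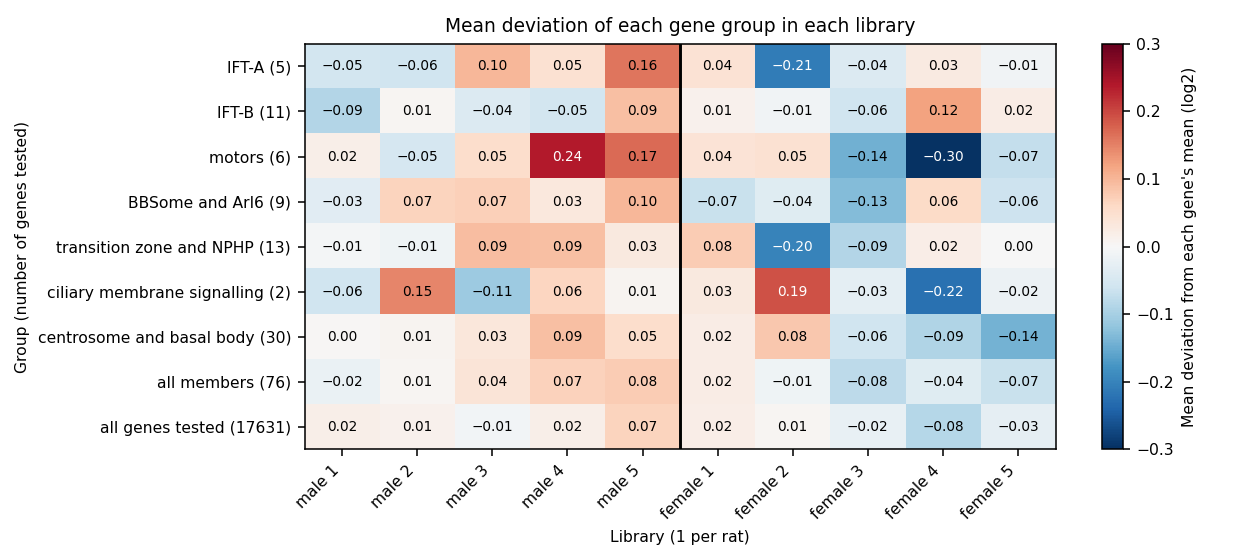
Mean deviation of each group of members in each library from each gene's mean over the 10 rats, on the log2(FPKM + 0.1) scale. Columns are libraries, with males left of the line, and the last row gives all genes tested. The motors reach −0.30 in female 4, where *Kif3c* is at −1.55, and 0.24 in male 4, where *Kif17* is at 0.52. IFT-A and the transition zone genes are at −0.21 and −0.20 in female 2.

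Deviations of the groups from their means over the rats fell on different libraries. Averaged over the 76 members, libraries lay between −0.08 (female 3) and 0.08 (male 5) on the log2 scale, and over all genes between −0.08 (female 4) and 0.07 (male 5). In female 2, the library with the most mitochondrial reads, IFT-A genes averaged −0.21 and transition zone genes −0.20, while *Cep* genes averaged 0.08. The motors averaged −0.30 in female 4, where *Kif3c* alone was at −1.55, and −0.05 there without *Kif3c*. In male 4 they averaged 0.24, and 0.21 without *Kif3c*. *Kif17*, near the limit of detection, was at 0.52 there and is part of both averages. Female 2 held the lowest value of 19 members (25%) and the highest of 12 (15.8%), against 18.5% and 18.8% of all genes. Female 3 held the lowest value of 14 members (18.4%) and the highest of 1 (1.32%), against 5.21% and 5.80% of all genes. Male 5 held the highest value of 17 members (22.4%), against 14.3% of all genes, and the lowest of 3 (3.95%), against 12.7%.

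Other genes of the same pathway gave no call. A further 72 ciliary genes were tested, from the rest of the BBSome, the transition zone, the exocyst and the basal body. By limma 0 were called in either direction, against 1.26% of all genes called higher and 1.14% called lower. In a list this short, 0 calls are no result. At an unadjusted p under 0.05, 4 were higher and 5 lower, against 7.67% and 8.07% of all genes. The median log2 fold change of the 72 was −0.02, and −0.003 without female 2. *Arl3*, a GTPase that releases lipid-modified cargo in the cilium, was nearest to a call among the higher genes (0.37, adjusted p = 0.0680) and *Kifap3*, the accessory subunit that joins *Kif3a* and *Kif3b*, among the lower ones (−0.36, adjusted p = 0.0897). *Kifap3* was called lower with values scaled by total reads (−0.43, limma adjusted p = 0.0267).

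The signalling and regulatory genes around the cilium had no call either, which in lists this short is no result about them. Of all genes, 1.26% were called higher and 1.14% lower, and 7.67% and 8.07% at an unadjusted p under 0.05. Of 20 genes of Hedgehog signalling, which vertebrate cells transduce through the cilium, 0 were called by limma (3 higher and 2 lower at an unadjusted p under 0.05, median −0.13). The ligand *Ihh* had the largest fold change at 0.91 (6.75 FPKM in males and 12.1 in females, adjusted p = 0.216), and the pathway target *Gli1* was at −0.55 (adjusted p = 0.317). Of 9 RFX and related regulators, 0 were called by limma and 8 had fold changes below 0, with a median of −0.24. At an unadjusted p under 0.05, 0 were higher and 1 was lower, *Rfx5* (−0.29, limma adjusted p = 0.107), whose ranges were separate. *Rfx5* was listed for its RFX family name, and a part of it in cilia was not examined. *Rfx3*, a known regulator of ciliary genes, was at 1.29 FPKM in males and 1.03 in females (limma adjusted p = 0.366). Of 9 genes of cilium disassembly, 0 were called by limma (0 higher and 1 lower at an unadjusted p under 0.05), and all had fold changes below 0, with a median of −0.17. *Aurka* and *Plk1* are on this list and among the proliferation markers. Of 28 table rows for genes of motile cilia, 14 were tested and 0 were called by limma (3 higher and 2 lower at an unadjusted p under 0.05), and 8 of the 28 had no more than 3 reads in any library, among them *Mcidas*, a defining factor of multiciliated cells, which was listed at 0 in every library.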

How the data were processed

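The 10 libraries hold poly(A) RNA from the renal cortex of PCK rats, 1 rat each, and were grouped by the sex in the labels (5 and 5). The submitters' processing notes name fastp, HISAT2 2.0.5, StringTie 1.3.3b and featureCounts 1.5.0-p3. The authors' provider aligned to Rnor_6.0, and the authors deposited gene FPKM as a single table. Whole reads were recovered from the FPKM for depth.

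As the values are FPKM, limma (lmFit and eBayes with trend) was run on log2(FPKM + 0.1) for genes whose mean reached 0.1 FPKM, with Benjamini-Hochberg adjustment over all of them. For single members, mean FPKM was compared by the exact permutation test, two-sided, over all 252 regroupings. Both were tested on simulated data first. Tools were limma 3.58.1 in R 4.3.3, and numpy 2.4.6, pandas 2.3.3, scipy 1.17.1 and matplotlib 3.10.9 in Python 3.11.15. Promoter windows came from RefSeq (GRCr8) by symbol.

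The members, lists and tests were chosen with earlier results of these data known. Members named were those with an adjusted p of at most 0.05 or separate ranges, the 5 highest and 5 lowest in mean, and a panel of 21 genes. Among members with a mean of at least 1 FPKM, the 3 furthest from 0 in fold change each way were also named. So were the 5 with the largest coefficient of variation at that level. Values of 2 panel members are not reported here. Others were named after their values were seen. Alternatives were pseudocounts of 1 and 0.01, a filter at 1 FPKM, no filter, scaling by total reads, quantile normalization, eBayes without trend, limma-voom on the recovered reads, the replicate number as a block and leaving out each library. Scaling by non-mitochondrial reads and the motors without *Kif3c* were added after seeing the data. Cyst fluid measurements were not analysed here.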

Additional observations from a re-analysis of the deposited data

Results flagged for a closer look

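In 7 of the 76 groups of 5 rats examined, formed by 38 members in each sex, 1 rat lay far from the other 4, with a gap of more than 0.71 of the group's range. Chance gives about 5% of groups for genes chosen without regard to their spread, which does not hold here, since *Cep85l* was among the members for its large coefficient of variation and *Cep295nl* for its low level. *Cep85l* was high in male 1 (1.55 FPKM, next 1.26) and in female 2 (2.32 FPKM, next 1.16). In female 2, *Mks1* was low (3.86 FPKM, next 4.86) and *Nphp4* was low (1.64 FPKM, next 2.36). *Invs* was low in male 1 (1.91 FPKM, next 2.31). *Cep295nl*, which had too few reads to be tested, was listed at 0 in male 1, and at 0.201 FPKM, from 6 reads, in female 1.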

How the results depend on the processing

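Of 737 fold changes of named members under 20 alternatives, 693 kept their direction and their side of the threshold, 7 lost the call, all of *Bbs7*, and 37 turned direction, the largest of these at 0.162. *Cep63* was called in every alternative. Replicate numbers did not pair the rats (correlations of same-numbered males and females −0.0975 to 0.0708, and 1 of 5 males correlated best with its own number). With the replicate block, 0 members were called lower, as the adjusted p of *Bbs7* was 0.0607. With each library left out, 0 to 1 members were called lower, and the 6 members with separate ranges became 6 to 10, with fewer rats in a group. Over all genes, 424 were called, against 231 with the replicate block and 266 to 550 with each library left out. Of the other ciliary genes, 1 (*Kifap3*) was called with scaling by total reads, with scaling by non-mitochondrial reads and with limma-voom. The median of the members was −0.12 with total reads and −0.13 with limma-voom, and that of all genes −0.08 in both. The cause was not tested.

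Turned fold changes were near 0. With total reads they were −0.0385 for *Ift52* and −0.0388 for *Ift88*, and with limma-voom −0.0362 and −0.0391. *Cep97* was at 0.0080 with a pseudocount of 1. After quantile normalization *Ift52* was at −0.0016, *Cep97* at 0.0932, *Kif17* at 0.11, *Mks1* at 0.0552 and *Cep290* at 0.0682. Over the fits without 1 library, values ran from −0.0609 to 0.0417 for *Bbs2*, −0.0705 to 0.0161 for *Ift140*, −0.0842 to 0.0353 for *Ift46*, −0.0183 to 0.103 for *Ift52*, −0.0072 to 0.0905 for *Ift88*, −0.157 to 0.162 for *Cep97*, −0.171 to 0.108 for *Kif17*, −0.0542 to 0.0731 for *Mks1*, −0.163 to 0.0168 for *Nphp4* and −0.148 to 0.0659 for *Cep290*.

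Values rest on 3 to 16 reads per library for *Kif17* and 12 to 82 for *Cep72* and *Cep55*.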
